A study of Neurospora crassa with 86 samples.

Results

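atg-8 and apg-1 are the genes of Neurospora crassa, a filamentous fungus, whose reference symbols mark them as autophagy genes. They were chosen by name, as NCU01545 (atg-8) and NCU00188 (apg-1), and are 2 of the 9758 genes measured. The choice rests on names and was made with earlier results of these data known. Their levels are described in all 27 groups of the study, with nitrogen and carbon starvation set against media that supply both nutrients.

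Autophagy is the process by which a cell encloses part of its cytoplasm in a double membrane, the autophagosome, and delivers it to the vacuole for breakdown and reuse. In budding yeast, Atg8 is a ubiquitin-like protein that becomes attached to a membrane lipid and coats the growing autophagosome. The yeast kinase Atg1, to which apg-1 corresponds, starts autophagosome formation and is held inactive by the TOR kinase while nutrients are plentiful. The messenger levels given here measure neither the proteins nor the autophagic flux.

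RNA of mycelium was sequenced from 86 libraries. Every culture was grown for 24 h in Vogel's minimal medium with 2% sucrose at 25 °C in constant light, then washed and kept for 4 h in the medium under test. The washing medium lacked carbon for the cultures that went to mannose or to carbon starvation and lacked nitrogen for all others, the controls in full medium included. Full medium held 2% sucrose and 25 mM NH4NO3. In 10 other fed media the sucrose was kept and NH4NO3 was replaced by 50 mM NH4Cl, NaNO3, glutamate, glutamine, isoleucine, proline or tryptophan, by 112 mM alanine, by 200 mM glycine or by 344 mM arginine. Nitrogen starvation was 2% sucrose with no nitrogen source, carbon starvation was 25 mM NH4NO3 with no carbon source, and the mannose medium held 2 mM mannose and 25 mM NH4NO3. The wild type FGSC 2489 was used in all 14 media (47 libraries). The deletion strains were Δamn-1 (12 libraries, in mannose, isoleucine, proline and tryptophan), Δnit-2 (15, in full medium, nitrate, isoleucine, proline and tryptophan), Δnit-4 (6, in nitrate and nitrogen starvation) and Δnmr (6, in full medium and nitrogen starvation). NIT-2 is a GATA factor that activates genes for the use of less preferred nitrogen sources, NMR binds it and holds it back, and NIT-4 activates nitrate assimilation. Each group had 3 libraries labelled as biological replicates, except wild type in full medium (5) and wild type in nitrogen starvation (6).

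Values are fragments per kilobase of transcript relative to all fragments mapped (FPKM), scaled to a common median ratio over genes, and depth was 6890000 to 19110000 fragments per library. Transcripts of nit-2 and nmr were below every wild-type library of the same medium in the strains deleted for them. That of amn-1 in Δamn-1 was 0.271 to 0.383 FPKM on mannose and 1.70 to 2.33 on isoleucine, against 22.4 to 37.0 and 11.7 to 13.99 in wild type. On proline and tryptophan it was still 4.43 to 5.15 and 4.72 to 5.54 FPKM, against 9.17 to 10.3 and 8.58 to 10.4 in wild type. The transcript of nit-4 was 4.32 to 8.63 FPKM in the libraries labelled Δnit-4 on nitrate and 4.99 to 6.17 in wild type on nitrate. Without nitrogen it was 2.65 to 4.12 FPKM in libraries labelled Δnit-4 and 2.66 to 4.67 in wild type. The ranges overlapped in both media, so all libraries labelled Δnit-4 are named by their label. Genes of the mitochondrial genome took 0.0464% to 0.174% of summed FPKM in the 39 libraries whose nitrogen source was NH4Cl (ammonium), NaNO3 (nitrate), isoleucine, proline or tryptophan, and 0.00297% to 0.0284% in the remaining 47. A comparison of 1 of those 5 media with full medium therefore also compares these separate ranges, and the part of that difference in the results was not tested. In wild type starved of nitrogen, the libraries labelled 1 to 3 also stood apart from those labelled 4 to 6, with mitochondrial shares of 0.0120% to 0.0148% and 0.0245% to 0.0249%.

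atg-8 lies on chromosome II at 3124675 to 3126054 (assembly NC12), a span of 1380 bases, and its nearest neighbours are 1188 and 1714 bases away. It was among the more abundant transcripts in every library, ranking between the 21st and the 305th of all genes. apg-1 lies on chromosome III at 2933803 to 2939195, 5393 bases, and its neighbour mig-11 ends 25 bases before it. The sources used here do not say whether counting was by strand, so reads from the end of mig-11 and from apg-1 may not be fully separated. Over the 27 group means of log2(FPKM + 1), apg-1 and mig-11 had a Pearson r of -0.35. apg-1 ranked between the 1145th and the 4933rd of all genes. FPKM is per length, so the levels of both genes can be set side by side: on the log2 scale atg-8 exceeded apg-1 by group means of 3.75 to 5.99.

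The level of atg-8 was lowest in media with ammonium or glutamine and highest with arginine or glycine as the only nitrogen source, and the starved groups lay between. Group means ran from 360.1 FPKM in wild type on ammonium to 2487 FPKM in wild type on arginine, a 6.91-fold span. The 5 libraries of wild type in full medium had 337.4, 323.3, 372.2, 400.2 and 510.1 FPKM of atg-8. The libraries on ammonium had 378.9, 364.4 and 336.8 FPKM, all within the range of full medium. Those on glutamine had 435.0, 379.9 and 438.7 FPKM and those on nitrate 524.2, 352.6 and 389.6 FPKM, so that neighbours among the lowest 4 media overlapped. At the other end the glycine libraries had 1641, 1683 and 1572 FPKM. The arginine libraries had 2486, 2449 and 2524 FPKM of atg-8, above every library of any other group. Of the 26 pairs of neighbours in the order of the 27 group means, only 2 had library ranges that did not overlap: mannose and glycine, and glycine and arginine, all in wild type.

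**Figure D1:**
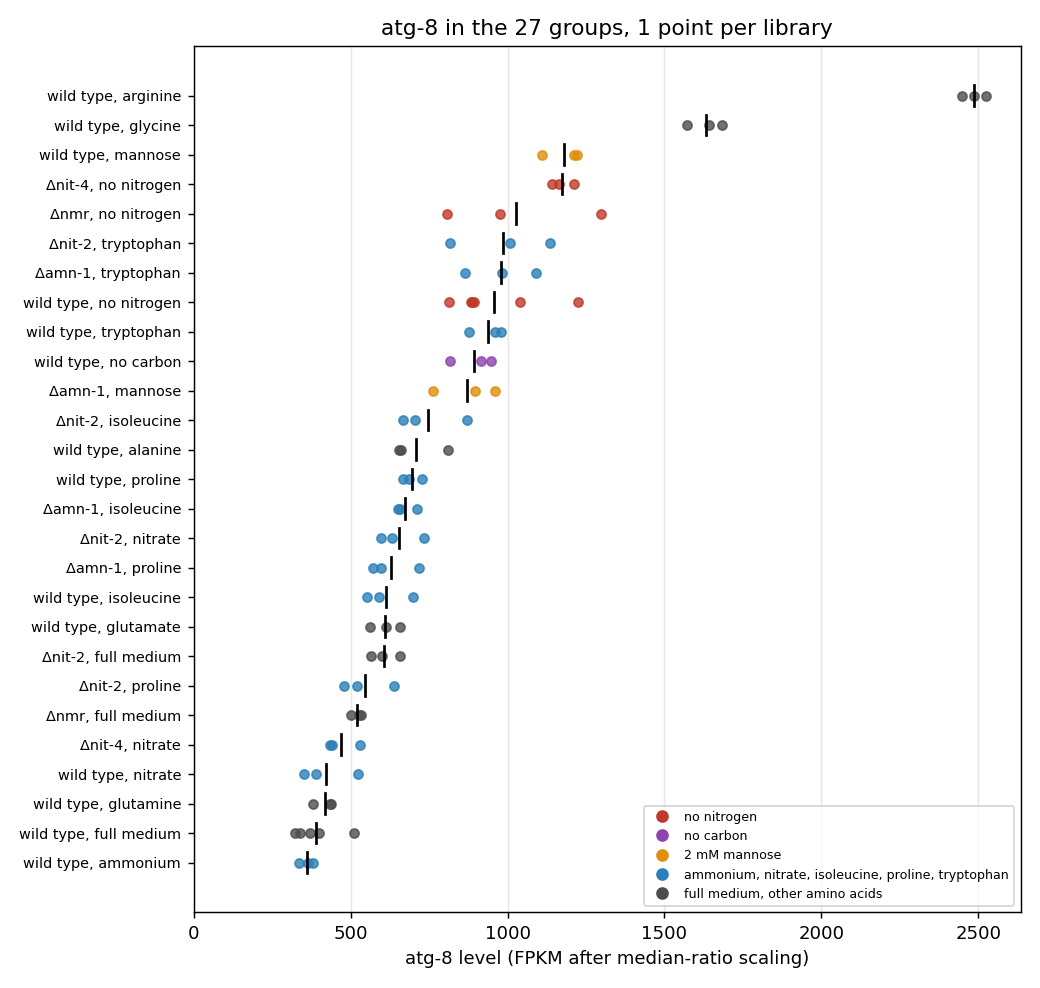
Level of atg-8 (FPKM after scaling, linear axis) in each of the 86 libraries, with 1 point per library, a bar at each group mean and the 27 groups ordered by mean. The arginine and glycine groups sit apart at 2487 and 1632 FPKM, and most other neighbouring groups overlap.

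apg-1 was lowest in full medium and on glutamine and highest on glycine and tryptophan. Group means ran from 10.4 FPKM in Δnit-2 in full medium to 83.6 FPKM in wild type on glycine, an 8.02-fold span. The wild type in full medium had 13.99, 14.4, 15.3, 12.6 and 14.6 FPKM. The glutamine libraries had 10.3, 12.3 and 12.5 FPKM, all below the lowest library of full medium. The glycine libraries had 88.9, 89.2 and 72.9 FPKM. Tryptophan gave 71.9, 59.0 and 61.6 FPKM in wild type, and Δamn-1 and Δnit-2 on tryptophan had means of 62.4 ± 11.7 and 61.5 ± 16.2 FPKM (SD, n = 3 each), so that the 3 tryptophan groups overlapped and followed glycine in the order. Over all 26 neighbouring pairs, 4 had ranges that did not overlap: full medium and glutamate, glutamate and ammonium, and tryptophan and glycine in wild type, and isoleucine and tryptophan in Δnit-2. Between ammonium in wild type and isoleucine in Δnit-2, each group overlapped the next while the means rose from 22.3 to 40.2 FPKM. Groups further apart in this stretch could be separate. Ammonium (highest 23.7 FPKM), for example, lay below carbon starvation (lowest 30.4 FPKM) in wild type.

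**Figure D2:**
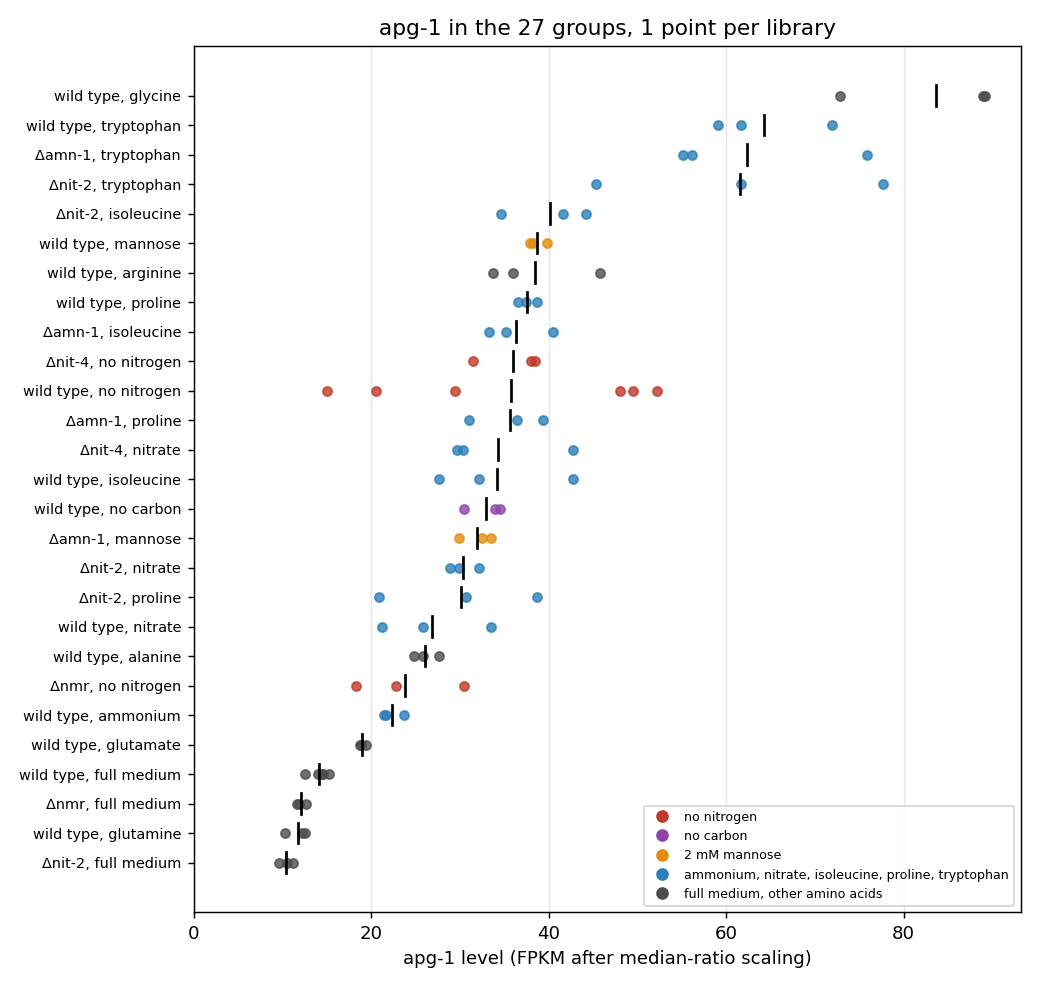
Level of apg-1 (FPKM after scaling, linear axis) in each of the 86 libraries, with 1 point per library, a bar at each group mean and the 27 groups ordered by mean. Glycine and tryptophan lie highest, and the 6 libraries of wild type without nitrogen fall into 2 bands, 15.1 to 29.4 and 48.1 to 52.1 FPKM.

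The order of the media was not the same for both genes. Arginine was highest for atg-8, but its apg-1 level of 45.7, 33.7 and 36.0 FPKM overlapped that on proline and mannose. On tryptophan atg-8 (980.0, 959.9 and 878.0 FPKM) overlapped the level without nitrogen. The group means of log2(FPKM + 1) of both genes had a Pearson r of 0.62 and a Spearman rho of 0.69 over the 27 groups, a description of groups that partly share strains and media. In the plot of atg-8 against apg-1, the 3 groups with most atg-8 relative to apg-1 were wild type on arginine (log2 ratio 5.99 ± 0.22), Δnit-2 in full medium (5.73 ± 0.024) and Δnmr without nitrogen (5.37 ± 0.016, SD, n = 3 each). The 13 groups in ammonium, nitrate, isoleucine, proline or tryptophan had mean log2 ratios of 3.75 to 4.38, and the other 14 groups 4.28 to 5.99. These 13 groups are those with the higher mitochondrial share, whose part in the ratio was not tested.

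**Figure D3:**
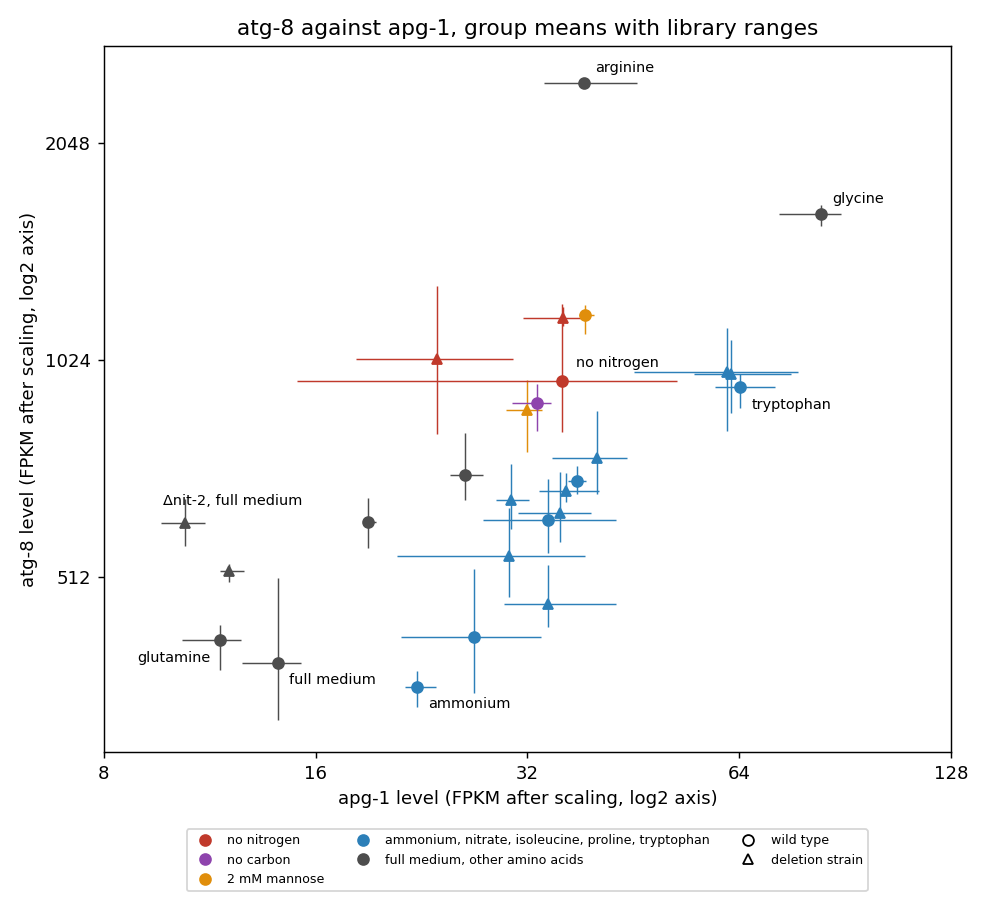
Group means of atg-8 against apg-1 (FPKM after scaling, both axes log2), with lines from the lowest to the highest library, circles for wild type and triangles for deletion strains. Arginine stands high for its apg-1 level (2487 against 38.5 FPKM), and the 13 groups in blue lie toward the lower right.

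Without nitrogen, both genes were higher than in full medium. atg-8 had 813.5, 1225, 1040, 888.0, 884.3 and 892.8 FPKM in libraries 1 to 6 of the starved wild type, against a highest value of 510.1 FPKM in full medium, so the groups did not overlap. The difference was 1.30 in log2(FPKM + 1) (SE 0.107; limma's test with Benjamini-Hochberg adjustment over 8709 genes, adjusted p = 9.6e-17), or 2.47-fold. apg-1 had 20.5, 29.4, 15.1, 52.1, 48.1 and 49.5 FPKM in the same libraries. Library 3 lay just under the highest of full medium, at 15.3 FPKM, so these ranges overlapped. The difference of apg-1 was 1.14 (SE 0.170; limma adjusted p = 3.1e-08), or 2.21-fold. This SE rests on a spread pooled over all groups, and does not measure the wider spread of apg-1 among the starved libraries. A gene was called where the adjusted p was under 0.05 and the difference at least 1 on this log2 scale, and both genes rose by that rule. Of all genes tested 7.82% were called higher without nitrogen, and atg-8 and apg-1 ranked 397th and 510th of 8709 by their difference.

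The 6 starved wild-type libraries disagreed on which gene rose more. In libraries 1 to 3 atg-8 had a mean of 1026 ± 206 FPKM and apg-1 21.7 ± 7.25 FPKM. In libraries 4 to 6 atg-8 had 888 ± 4.27 FPKM and apg-1 49.9 ± 2.08 FPKM (SD, n = 3 each). The bands of apg-1 did not overlap, while those of atg-8 did. Against libraries 1 to 3 of full medium, starved libraries 1 to 3 differed by 1.56 for atg-8 (limma adjusted p = 2.9e-14), which was called, and by 0.50 for apg-1 (adjusted p = 0.0147), which was not. Against libraries 4 and 5 of full medium, starved libraries 4 to 6 differed by 0.97 for atg-8 (limma adjusted p = 7.0e-08), just under the call, and by 1.81 for apg-1 (adjusted p = 7.9e-13). Over all libraries the log2 ratio of atg-8 to apg-1 was 4.83 ± 0.81 without nitrogen (SD, n = 6) and 4.67 ± 0.28 in full medium (SD, n = 5), an exact two-sided permutation p of 0.714. That p pools shifts in opposite directions, so it does not show an unchanged ratio. In libraries 1 to 3 the ratio was 5.53 ± 0.42 starved and 4.47 ± 0.068 in full medium (SD, n = 3 each). In the later libraries it was 4.13 ± 0.057 starved (SD, n = 3) and 4.96 ± 0.10 in full medium (SD, n = 2). Labels do not say what separates libraries 1 to 3 from the later ones.

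How far nitrogen starvation stood apart depended on the fed medium it was set against. atg-8 without nitrogen was above every library of 8 of the 11 fed media, overlapped tryptophan and was below every library of glycine and arginine. apg-1 without nitrogen was above every library of glutamine alone, overlapped 8 media and was below all libraries of glycine and tryptophan. Against ammonium the difference of atg-8 was 1.40 (limma adjusted p = 1.9e-15), a call that 12.1% of genes shared in that direction. That of apg-1 was 0.52 (limma adjusted p = 0.0163), under the call. Against glutamine both genes rose, by 1.18 (limma adjusted p = 1.1e-12) for atg-8 and 1.40 (adjusted p = 9.1e-09) for apg-1, where 9.74% of genes were called higher. Without libraries 4 to 6 of the starved group and 4 and 5 of full medium, apg-1 differed from glutamine by 0.79 and was not called. Without libraries 1 to 3 of both groups its difference from ammonium was 1.13 and was called.

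Proline, a less preferred nitrogen source, gave levels of atg-8 nearer to those of starvation than full medium did, while for apg-1 this depended on the starved libraries. The proline libraries had 667.4, 687.0 and 728.9 FPKM of atg-8 and 36.6, 38.7 and 37.5 FPKM of apg-1. Nitrogen starvation minus proline was 0.45 for atg-8 (limma adjusted p = 0.0012), and -0.21 (95% interval -0.60 to 0.19) for apg-1, with no call, against 9.55% of genes called higher. With starved libraries 1 to 3 that of apg-1 was -0.81 (limma adjusted p = 4.7e-05), a larger gap than the 0.50 between them and full medium, and with libraries 4 to 6 it was 0.40 (adjusted p = 0.0251). Against the mean of all 11 fed media, starvation differed by 0.46 for atg-8 (limma adjusted p = 4.3e-07) and by 0.15 for apg-1 (adjusted p = 0.288), again with no call, where 6.28% of genes were called higher. For apg-1 that last difference was -0.46 with starved libraries 1 to 3 and 0.76 with libraries 4 to 6.

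Both genes were also higher in carbon starvation than in full medium. atg-8 had 916.9, 948.1 and 815.3 FPKM and apg-1 34.5, 34.0 and 30.4 FPKM. All were above every library of full medium. The differences were 1.22 for atg-8 (SE 0.129, limma adjusted p = 5.3e-13) and 1.16 for apg-1 (SE 0.205, adjusted p = 8.0e-07), both called. Of all genes tested, 18.5% were called higher in this comparison, and the members ranked 1281st and 1353rd of 8709. With only libraries 4 and 5 of full medium the difference of atg-8 was 0.98 and not called. The log2 ratio of both genes was 4.72 ± 0.038 (SD, n = 3) against 4.67 ± 0.28 in full medium (exact two-sided permutation p = 0.75).

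Carbon-starved atg-8 was above all libraries of the same 8 fed media as nitrogen-starved atg-8. apg-1 was above 5 media (full medium, alanine, glutamate, glutamine and ammonium) and below 3 (glycine, proline and tryptophan). Against the mean of the 11 fed media the differences were 0.37 for atg-8 (limma adjusted p = 0.0013) and 0.17 for apg-1 (adjusted p = 0.357), with no call, where 16.9% of genes were called higher. Nitrogen starvation minus carbon starvation was 0.09 (95% interval -0.16 to 0.34) for atg-8 and -0.02 (-0.42 to 0.37) for apg-1, so neither was called while 19.7% of genes were, in either direction. With starved libraries 1 to 3 that of apg-1 was -0.63 and with libraries 4 to 6 it was 0.58, both of which passed the adjusted p but were under the call.

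The mannose medium, which holds only 2 mM sugar, gave levels above those of carbon starvation. atg-8 had 1220, 1111 and 1213 FPKM, above every carbon-starved library, and apg-1 37.9, 39.8 and 38.3 FPKM, likewise above them. Over full medium atg-8 rose by 1.62 (limma adjusted p = 5.0e-18) and apg-1 by 1.39 (adjusted p = 1.2e-08), where 20.2% of genes were called higher. Carbon starvation minus mannose was -0.40 for atg-8 (limma adjusted p = 0.0168) and -0.22 (95% interval -0.68 to 0.23) for apg-1, with no call, where 11.3% of genes were called in either direction.

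Genes listed by symbol for conidiation, the forming of asexual spores (conidia) by a culture, moved with both media that lack sucrose. The list took in clock-controlled (ccg) genes and regulators beside con genes and eas, so a change in it need not mark conidia. Of 15 such genes 10 rose and 2 fell in carbon starvation, where 18.5% of all genes were called higher and 17.4% lower. In mannose 9 rose and 1 fell, where 20.2% of all genes were called higher and 19.1% lower. Their summed level was 60630 to 70117 FPKM in carbon starvation, 47809 to 120039 in mannose and 2286 to 4647 in full medium, and at least 13 of the 15 were at 1 FPKM or more in each of these 3 groups. Without nitrogen 6 rose and 1 fell, with a sum of 3419 to 20363 FPKM, where 7.82% of all genes were called higher and 9.17% lower. On arginine, where atg-8 was highest, 3 rose and 4 fell, and the sum was 3545 to 4529 FPKM, with 17.3% of all genes called higher and 15.1% lower. On glycine, where apg-1 was highest, 5 rose and 2 fell, with a sum of 4338 to 5276 FPKM, 18.4% of all genes called higher and 15.2% lower. On tryptophan 8 rose and 1 fell, with a sum of 13871 to 17329 FPKM, 14.8% of all genes called higher and 14% lower. The part of conidial RNA in the levels of atg-8 and apg-1 was not tested, and in these bulk samples fewer cells of a type and less RNA per cell cannot be told apart.

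Among the nitrogen sources, glycine gave larger differences from full medium than starvation did for both genes. Arginine did so for atg-8 and tryptophan for apg-1. Over all libraries, arginine, proline and isoleucine (1.37, 1.35 and 1.19) also exceeded starvation (1.14) for apg-1, but not with libraries 4 and up. On arginine atg-8 rose by 2.69 (SE 0.129, limma adjusted p = 3.6e-28), or 6.47-fold, and apg-1 by 1.37 (SE 0.205, adjusted p = 2.0e-08), where 17.3% of genes were called higher. With libraries 4 and up of wild type the difference of apg-1 was 1.43 on arginine and 1.81 without nitrogen, and starved libraries 4 to 6 were above every arginine library. By the difference of arginine from full medium atg-8 ranked 153rd of 8709 genes and apg-1 897th. On glycine the differences were 2.09 for atg-8 (SE 0.129, limma adjusted p = 9.8e-23) and 2.48 for apg-1 (SE 0.205, adjusted p = 4.2e-17), or 4.25-fold and 5.57-fold, with 18.4% of genes called higher. On tryptophan atg-8 rose by 1.29 (limma adjusted p = 9.5e-14) and apg-1 by 2.101 (adjusted p = 3.8e-14), with 14.8% of genes called higher. Tryptophan is one of the media with the higher mitochondrial share, whereas arginine (0.00352% to 0.00736%) and glycine (0.0109% to 0.0126%) are not.

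Alanine, glycine and arginine were given at 112, 200 and 344 mM, and the other amino acids at 50 mM, so the amino acid and its concentration cannot be told apart. Side by side, atg-8 had means of 709 ± 89.2, 1632 ± 55.7 and 2487 ± 37.5 FPKM at these concentrations (SD, n = 3 each). apg-1 had 26.1 ± 1.44, 83.6 ± 9.34 and 38.5 ± 6.38 FPKM. The concentration and the level of atg-8 followed the same order, while apg-1 was highest at the middle concentration. Among the amino acids at 50 mM, atg-8 ranged from 418 ± 32.9 FPKM on glutamine to 939 ± 54.0 FPKM on tryptophan.

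Proline and isoleucine moved apg-1 past the threshold and atg-8 less. On proline the differences from full medium were 1.35 for apg-1 (limma adjusted p = 3.4e-08), which was called, and 0.85 for atg-8 (adjusted p = 2.8e-08), which was not, with 14.2% of genes called higher. On isoleucine, with 699.8, 552.4 and 590.6 FPKM of atg-8 and 42.8, 27.6 and 32.1 FPKM of apg-1, they were 1.19 for apg-1 (limma adjusted p = 6.9e-07), called, and 0.67 for atg-8 (adjusted p = 6.2e-06), with 11.9% called higher. Isoleucine library 1 was the highest of its group in both genes and in mitochondrial share, at 0.174%. The same was true of nitrate library 1, with 524.2 FPKM of atg-8, 33.5 FPKM of apg-1 and a share of 0.141%.

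Alanine and glutamate, which fall in the lower mitochondrial range like full medium, gave smaller shifts. Alanine differed by 0.88 for atg-8 (limma adjusted p = 1.2e-07) and 0.84 for apg-1 (adjusted p = 0.00078), with 4.39% of genes called higher. Glutamate differed by 0.67 for atg-8 (limma adjusted p = 3.4e-05) and 0.40 for apg-1 (adjusted p = 0.117), with 4.08% called higher. None of these 4 differences reached 1, though with only libraries 1 to 3 of full medium atg-8 was called on alanine (1.03), as it was on proline (1.01). Nitrate gave 0.12 for atg-8 (95% interval -0.14 to 0.37) and 0.85 for apg-1 (limma adjusted p = 0.00029), with 7.42% of genes called higher. Ammonium at 50 mM gave -0.09 (-0.35 to 0.17) for atg-8 and 0.62 for apg-1 (limma adjusted p = 0.00875), with 4.93% called higher. Glutamine gave 0.12 (-0.14 to 0.38) for atg-8 and -0.26 (-0.67 to 0.15) for apg-1, neither past the adjusted p, with 0.459% called higher.

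**Figure D4:**
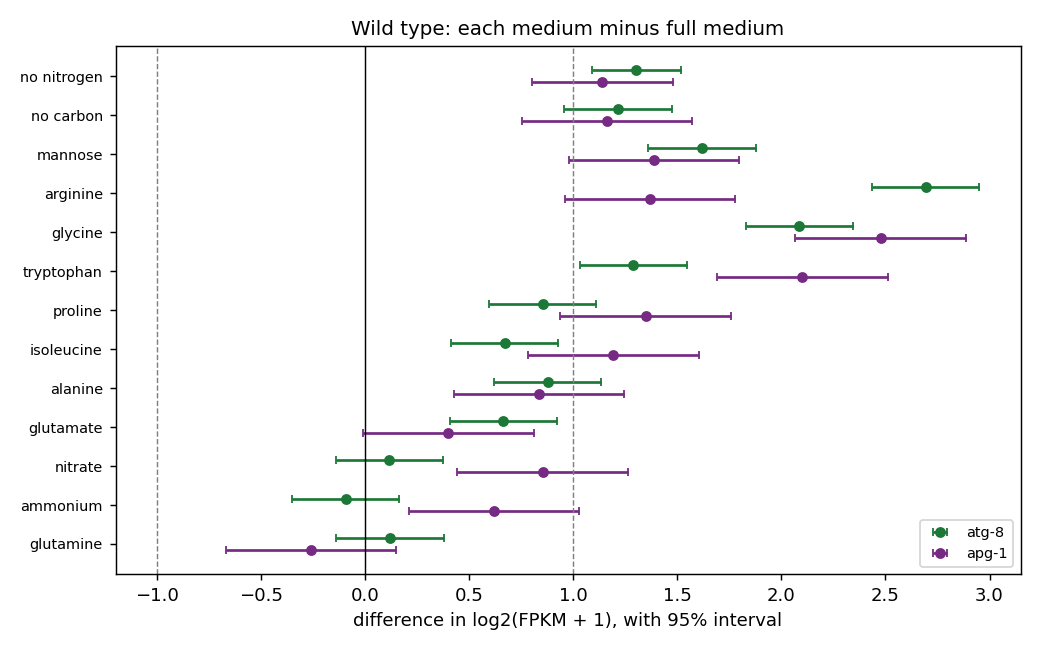
Difference of each wild-type medium from wild type in full medium in log2(FPKM + 1) for atg-8 and apg-1, with points for the fitted difference, bars for the 95% interval and dashed lines at 1 and -1. Arginine is the largest for atg-8 (2.69), glycine for apg-1 (2.48), and glutamine and ammonium lie near 0 for atg-8.

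In all, each gene was called higher in 9 of 37 comparisons and lower in none. Another 14 comparisons for atg-8 and 5 for apg-1 passed the adjusted p with a difference under 1. All comparisons with full medium share its 5 libraries, so they are not independent of each other.

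The deletions of nitrogen regulators and of amn-1, as labelled, changed neither gene by the call in any of 13 comparisons with wild type in the same medium. In these, 0.597% to 16.9% of genes were called in either direction. For atg-8 these differences ran from -0.44 to 0.66, and 5 of the 13 passed the adjusted p. For apg-1 they ran from -0.46 to 0.35, and 0 of 13 passed it by limma's test, with 1 at an unadjusted p under 0.05. That one was Δnmr without nitrogen, at -0.46 (limma adjusted p = 0.05001), where 5.55% of genes were called. Against wild-type libraries 4 to 6 alone it was -1.06 and called, and against libraries 1 to 3 it was 0.15. The mitochondrial share of the Δnmr libraries there was 0.00377% to 0.00528%, below all of wild type without nitrogen, and its part was not tested.

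In full medium Δnit-2 had 599.9, 564.5 and 657.2 FPKM of atg-8, above every wild-type library, and 10.5, 9.6 and 11.2 FPKM of apg-1, below every one. The difference of atg-8 was 0.66 (limma adjusted p = 7.4e-05), with 2.56% of genes called in either direction. It was 0.82 (limma adjusted p = 5.5e-06) against libraries 1 to 3 of full medium and 0.42 (adjusted p = 0.0336) against libraries 4 and 5. The difference of apg-1 was -0.41 (95% interval -0.82 to 0.00, limma adjusted p = 0.148). On nitrate Δnit-2 had 595.6, 733.7 and 631.5 FPKM of atg-8, again above wild type, a difference of 0.64 (limma adjusted p = 0.00022), with 9.04% of genes called. apg-1 there was 30.3 ± 1.68 against 26.8 ± 6.22 FPKM (SD, n = 3 each), a difference of 0.19 (-0.27 to 0.65). On proline atg-8 was lower in Δnit-2, at 480.3, 521.1 and 637.0 FPKM, a difference of -0.36 (limma adjusted p = 0.0379), with 9.13% of genes called. On isoleucine and tryptophan the differences of both genes were within -0.09 to 0.28 and none passed the adjusted p, with 5.09% and 6.67% of genes called.

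Δnmr in full medium had 532.5, 527.5 and 502.6 FPKM of atg-8, of which only the lowest was under the highest wild-type library. The difference was 0.44 (limma adjusted p = 0.0075), with 4.44% of genes called. It was 0.60 (limma adjusted p = 0.00061) against libraries 1 to 3 of full medium and 0.20 (adjusted p = 0.326) against libraries 4 and 5. apg-1 had 11.8, 11.7 and 12.7 FPKM, a difference of -0.21 (95% interval -0.62 to 0.20). The mitochondrial share of these libraries was 0.00297% to 0.00417%, below the 0.00858% to 0.0210% of wild type in full medium, and its part in the difference was not tested.

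Within Δnmr, starvation for nitrogen gave 976.7, 808.6 and 1299 FPKM of atg-8 and 22.7, 18.3 and 30.5 FPKM of apg-1, all above the same strain in full medium. The differences were 0.95 for atg-8 (limma adjusted p = 8.3e-08) and 0.90 for apg-1 (adjusted p = 0.00073), both just under the call, with 4.10% of genes called higher. Without library 2 they were 1.11 and 1.07 and both were called. The test of whether this response differed from that of wild type gave -0.35 for atg-8 (limma adjusted p = 0.135) and -0.24 for apg-1 (adjusted p = 0.566), with 6.42% of genes called. Set against wild-type libraries 4 and up, however, the difference of responses for apg-1 was -0.91 (limma adjusted p = 0.0021), and against wild-type libraries 1 to 3 it was 0.40 (adjusted p = 0.238). For atg-8 it was -0.02 (limma adjusted p = 0.946) against libraries 4 and up and -0.60 (adjusted p = 0.0157) against libraries 1 to 3.

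In the libraries labelled Δnit-4, atg-8 had 1163, 1142 and 1213 FPKM without nitrogen and 435.5, 439.3 and 530.9 FPKM on nitrate. That difference was 1.33 (limma adjusted p = 4.8e-12), where 7.33% of genes were called higher. apg-1 had 38.0, 31.5 and 38.4 FPKM without nitrogen and 29.7, 30.4 and 42.7 FPKM on nitrate, overlapping ranges with a difference of 0.08 (95% interval -0.37 to 0.54). The difference of this response from the one in wild type was 0.14 for atg-8 (limma adjusted p = 0.713) and -0.20 for apg-1 (adjusted p = 0.741), with 2.2% of genes called. For apg-1 that difference of responses was -0.81 (limma adjusted p = 0.0045) against wild-type libraries 4 to 6 and 0.40 (adjusted p = 0.291) against libraries 1 to 3. Against wild type in the same medium, these libraries differed by 0.31 for atg-8 without nitrogen (limma adjusted p = 0.0558, 5.49% of genes called) and by 0.16 on nitrate (adjusted p = 0.391, 7.29% called). For apg-1 the differences were 0.14 and 0.35, and neither passed the adjusted p. Without nitrogen that of apg-1 was 0.75 (limma adjusted p = 0.00036) against wild-type libraries 1 to 3 and -0.47 (adjusted p = 0.0188) against libraries 4 to 6, neither called. That of atg-8 was 0.21 (limma adjusted p = 0.208) and 0.40 (adjusted p = 0.0129). The mitochondrial share was 0.00529% to 0.00894% without nitrogen and 0.0482% to 0.0661% on nitrate.

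Δamn-1 was lower than wild type in atg-8 on mannose, with 960.4, 761.8 and 894.9 FPKM, all below the wild-type libraries. The difference was -0.44 (limma adjusted p = 0.0071), in a comparison where 16.9% of genes were called. apg-1 on mannose had 33.5, 29.9 and 32.5 FPKM, also below every wild-type library, with a difference of -0.27 (95% interval -0.73 to 0.19). The summed level of the genes listed for conidiation was 38319 to 45939 FPKM in Δamn-1 and 47809 to 120039 FPKM in wild type on mannose. Its part in these differences was not tested. On isoleucine, proline and tryptophan no difference of either gene passed the adjusted p, and they lay between -0.15 and 0.14. There 0.597%, 5.53% and 0.643% of all genes were called.

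**Figure D5:**
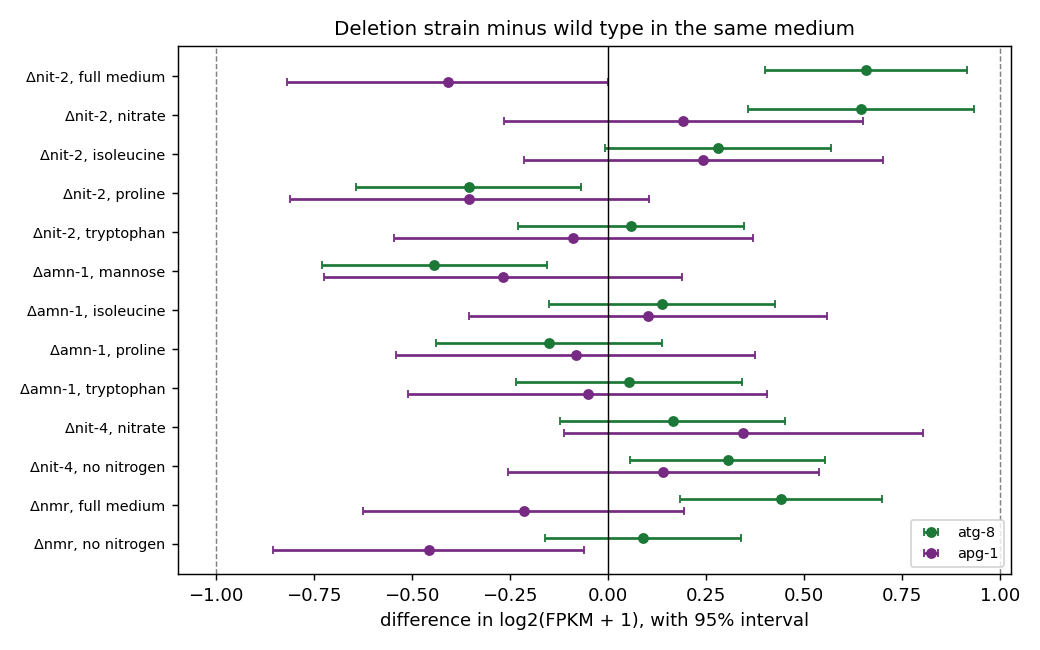
Difference of each deletion strain from wild type in the same medium in log2(FPKM + 1) for atg-8 and apg-1, with points for the fitted difference, bars for the 95% interval and dashed lines at 1 and -1. No difference reaches 1, and the largest is that of atg-8 in Δnit-2 in full medium (0.66).

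Other genes that act in breakdown at the vacuole, or in nutrient sensing, were found by symbol. The only autophagy symbols in the reference table were those of atg-8 and apg-1. pep4, which encodes the vacuolar protease that in yeast activates other vacuolar hydrolases, had 364 ± 8.15 FPKM in full medium (SD, n = 5). It was 684 ± 68.1 FPKM without nitrogen (SD, n = 6), a difference of 0.90 that passed the adjusted p but not the call. It was 1184 ± 54.6 FPKM in carbon starvation (SD, n = 3), a difference of 1.70, which was called, as 18.5% of all genes were. pep4 was also called higher in mannose (2.06), arginine (1.24) and tryptophan (1.09), where 20.2%, 17.3% and 14.8% of all genes were. It was not called in glycine (0.50), the medium with the highest apg-1, where 18.4% of all genes were called higher.

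Of 14 subunits of the vacuolar ATPase, which acidifies the vacuole, none was called in nitrogen or carbon starvation by limma's test. Without nitrogen 12 of the 14 were higher at an unadjusted p under 0.05, as were 35.9% of all genes tested, with a median difference of 0.25 beside 0.04 over all genes. In carbon starvation 6 of the 14 had such a p, 4 of them higher, beside 39.98% of all genes higher and 37.96% lower at such a p, with a median of -0.02 beside 0.03. On arginine, the medium with the highest atg-8, 3 of the 14 were called lower (vma-8, vma-9 and vma-10), where 15.1% of all genes were. The list as a whole was lower there, with a median of -0.67 beside 0.02 over all genes. At an unadjusted p under 0.05 were 12 of the 14, 1 of them higher, beside 39.2% of all genes higher and 35.7% lower. vma-10 fell by 2.16, from 124 ± 17.6 FPKM in full medium (SD, n = 5) to 27.0 ± 6.02 FPKM (SD, n = 3). On mannose vma-8 and vma-10 rose, by 1.25 and 1.31, where 20.2% of all genes were called higher. There 13 of the 14 were higher at an unadjusted p under 0.05, as were 41.1% of all genes, with a median of 0.51 beside 0.05. On glycine 10 of the 14 had such a p, 0 of them higher, beside 39.4% of all genes higher and 36.4% lower. The median there was -0.26 beside 0.04, and none was called.

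The proteasome is the other large route of protein breakdown. Of 17 genes listed for it by symbol none was called without nitrogen by limma's test. At an unadjusted p under 0.05, 2 were lower, as were 31.3% of all genes. In carbon starvation 4 of the 17 fell, not far from the 17.4% of all genes called lower. rpn-9 fell by 1.27, rpt-3 by 1.14 and rpn-6 by 1.12. rpn-4, which fell by 1.83, is named after a transcription factor of proteasome genes and not a subunit. The median over the 17 was -0.63, and 16 of the 17 were lower at an unadjusted p under 0.05, as were 37.96% of all genes. rpn-4 rose on arginine (2.21), glycine (1.54) and tryptophan (1.70), where 17.3%, 18.4% and 14.8% of all genes were called higher. It was the only 1 of the 17 called there, and the list did not follow it in each medium. On arginine the median over the 17 was 0.43, and 12 were higher at an unadjusted p under 0.05, as were 39.2% of all genes. On glycine the median was -0.22, and 9 had such a p, 2 of them higher. On tryptophan the median was -0.07, and 8 had such a p, 5 of them higher. Of 7 nutrient signalling genes 1 fell without nitrogen, where 9.17% of all genes were called lower, and 3 fell in carbon starvation, where 17.4% were. cpc-1, the activator of general amino acid control, fell in both, by 1.14 and 1.41, and rose on glycine by 1.24. cpc-3, which encodes the kinase upstream of cpc-1, fell by 1.19 in carbon starvation and rose by 1.35 on glycine. mcb, which encodes the regulatory subunit of protein kinase A, fell by 1.25 in carbon starvation. It was also called lower on mannose (-1.13) and on arginine (-1.55), a fed medium. On mannose cpc-1 (-2.15) and cpc-3 (-1.10) were called lower too. There 3 of the 7 fell and 1 rose, where 19.1% of all genes were called lower and 20.2% higher. On arginine 1 of the 7 fell, where 15.1% of all genes were called lower. On glycine 2 of the 7 rose, where 18.4% of all genes were called higher.

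The genes whose group means ran most like those of atg-8 were NCU08926 (Pearson r 0.89), NCU08369 (0.88) and NCU04479 (0.88), over 27 groups. Among genes with a symbol they were pks-1 (0.79), gh61-5 (0.78), ubi (0.78), gh76-4 (0.77) and scon-3 (0.77). ubi, for example, had 460.4 FPKM in full medium, 963 without nitrogen, 569 in carbon starvation, 1902 on arginine and 2306 on glycine. apg-1 came 299th in this order. Most like apg-1 were NCU04255 (0.91), NCU00537 (0.90) and stk-26 (0.90), followed among genes with a symbol by rgf3 (0.84), qa-Y (0.83), fi (0.81) and pks-1 (0.79). stk-26 had 17.5 FPKM in full medium, 29.5 without nitrogen, 33.2 in carbon starvation, 58.7 on arginine and 99.6 on glycine. atg-8 came 519th in the order for apg-1. In all, 25 genes had an r over 0.8 with atg-8 and 53 with apg-1.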

How the data were processed

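Gene values were deposited by the authors per sample as FPKM with confidence bounds, and again in a joint table of 9598 entries, per the file headers. HISAT2 2.1.0, Cufflinks 2.2.1 and Cuffnorm 2.2.1 are named in the submitters' processing notes. Genome build and strand setting: not given in the sources used here. Coordinates are as in the files and equal those of assembly NC12 for both genes. The per-sample values were used, because the number in the joint table's column names differed from the label of the library with matching values for 51 of 86 columns; joint columns were used by group only. FPKM was divided by median-ratio factors over 8082 genes above 0 in every library (log2 factors -0.364 to 0.477).

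The authors' upper bound, read as FPKM × (1 + 2/√fragments), gave the fragments behind a value, which were whole within 0.05 for 78.5% of values under 20 fragments. They were 3977 to 45547 per library for atg-8 and 527 to 9885 for apg-1, where the authors' bound is ±8.71% at the fewest, for counting error only. Replicates held 0 identical pairs of 100.

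The test was limma's (version 3.58.1, R 4.3.3) on log2(FPKM + 1), a scale that understates changes of low genes, with 1 mean per group over all 86 samples (59 residual degrees of freedom), a trended prior, and p-values adjusted by Benjamini-Hochberg over 8709 genes with at least 1 FPKM in 3 or more samples. There were 37 comparisons. The test was tried on simulated data first. The log2 ratio of both genes was compared with exact two-sided permutation tests over samples in scipy 1.17.1 (Python 3.11.15), with numpy 2.4.6, pandas 2.3.3 and, for figures, matplotlib 3.10.9. p-values measure the spread between libraries labelled biological replicates, which limma's test pools over all 27 groups. For apg-1 the coefficient of variation was 45.2% in wild type without nitrogen, against a median of 10.6% over the groups. The pooled spread understates that of this group. The smallest p possible in these exact tests was 0.0043 for nitrogen and 0.0357 for carbon starvation.

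Members, lists and tests were chosen with earlier results of these data known. Named genes are the members, the 3 most alike by Pearson r over group means and the 5 most alike with a symbol, and up to 3 called genes of each list; vma-10, rpn-6 and the genes given levels as examples (ubi, stk-26) were chosen after their values were seen. No label gives a locus for amn-1, and NCU00445 was assigned to it from background knowledge. pre-1 and pre-2 were left out of the proteasome list because they encode pheromone receptors. Of 9758 identifiers 9757 matched the reference table and 1118 had a symbol. No sequence is printed.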

Additional observations from a re-analysis of the deposited data

How the results depend on the processing

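Of 614 recomputed differences of atg-8 and apg-1 under settings other than leaving out 1 library, 576 kept direction and call, as did 698 of 720 with 1 library left out. The settings were a pseudocount of 0.1, no filter, a filter at 10 FPKM, no scaling, the joint table, only the groups compared, the replicate block, and libraries 1 to 3 or 4 and up of wild type in full medium and without nitrogen. Both filters, the pseudocount and the joint table changed no direction and no call of either gene. Many differences under the replicate block are the same as those with libraries 1 to 3, so these settings are not independent. Causes were not tested. Depth limits apg-1 more than atg-8, at 527 and 3977 fragments at the fewest.

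Without scaling, the median of all genes shifted by -0.18 to 0.49, by 0.27 for nitrogen starvation and 0.43 for carbon starvation against full medium, so differences hold relative to that shift (at most 0.062 with scaling). Then Δnmr starved minus fed was 1.25 for atg-8 and 1.18 for apg-1, both called. Signs turned for uncalled values: starved minus proline in apg-1 (0.25), nitrogen minus carbon starvation (-0.11) and nitrate minus full medium (-0.080) in atg-8, Δnit-2 on tryptophan in atg-8 (-0.051), and Δamn-1 on proline (0.041 for atg-8, 0.11 for apg-1).

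Replicate numbers are shared between groups but did not pair the libraries: in 0 of 33 comparisons did every same-numbered pair correlate over 0.1, and in 0 was each library closest to its own number. With the replicate block the differences from full medium were 1.32 and 1.02 (nitrogen) and 1.37 and 1.13 (carbon starvation) for atg-8 and apg-1. Under the block, starved minus glutamine in apg-1 was 0.79 and not called, and alanine (1.03) and proline (1.01) minus full medium were called for atg-8. Signs turned under the block for starved minus ammonium (-0.086) and minus the mean of fed media (-0.18) in apg-1, ammonium minus full medium in atg-8 (0.065), Δnmr minus wild type without nitrogen (-0.0047 and 0.15), and the Δnit-4 difference of responses in apg-1 (0.40).

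With libraries 1 to 3, starved minus full medium was 0.50 and starved minus glutamine 0.79 in apg-1, neither called, while alanine (1.03) and proline (1.01) were called in atg-8. Signs turned in apg-1 for starved minus ammonium (-0.086), minus the mean of fed media (-0.46), Δnmr without nitrogen (0.15) and the differences of responses (0.40 for Δnmr and 0.40 for Δnit-4), and in atg-8 for ammonium (0.065) and Δnmr without nitrogen (-0.0047). With libraries 4 and up, atg-8 was not called without nitrogen (0.97) or carbon (0.98), and apg-1 was called in starved minus ammonium (1.13) and in Δnmr minus wild type without nitrogen (-1.06). Signs turned in apg-1 for starved minus proline (0.40), nitrogen minus carbon starvation (0.58) and Δnit-4 without nitrogen (-0.47), and in atg-8 for nitrogen minus carbon starvation (-0.0052), glutamine (-0.12) and nitrate (-0.12).

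With 1 library left out, apg-1 on nitrate minus full medium was 0.69 to 1.01, called without nitrate library 2, and Δnmr starved minus fed was 0.77 to 1.11 for atg-8 and 0.71 to 1.07 for apg-1, called without library 2. Ranges that crossed 0 in apg-1 were -0.16 to 0.19 (nitrogen minus carbon starvation), -0.34 to 0.0032 (starved minus proline), -0.034 to 0.27, -0.16 to 0.012 and -0.20 to 0.032 (Δamn-1 on isoleucine, proline and tryptophan), -0.27 to 0.11 (Δnit-2 on tryptophan), -0.069 to 0.28 (Δnit-4 without nitrogen) and -0.0079 to 0.25 (Δnit-4 starved minus nitrate). In atg-8 they were -0.15 to 0.010 (ammonium), -0.049 to 0.24 (nitrate), -0.027 to 0.14 (Δamn-1 on tryptophan), -0.049 to 0.19 (Δnit-2 on tryptophan), -0.093 to 0.25 (Δnmr without nitrogen) and -0.026 to 0.26 (Δnit-4 difference of responses). The difference in log2 ratio ranged over -0.075 to 0.32 for nitrogen and -0.017 to 0.14 for carbon starvation.

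Counts of genes called moved by over 1.5 times as follows. With a pseudocount of 0.1, 156 in place of 102 were called on glutamine, 372 in place of 223 for Δnit-2 and 613 in place of 387 for Δnmr in full medium, and 847 in place of 483 for Δnmr without nitrogen. With only the groups compared, or with the replicate block, Δamn-1 had 10 and 1 in place of 52 on isoleucine and 27 and 14 in place of 56 on tryptophan, Δnit-4 had 418 and 64 in place of 635 on nitrate and 282 and 779 in place of 478 without nitrogen, Δnmr had 266 and 33 in place of 483 without nitrogen, and the differences of responses had 265 and 207 in place of 559 for Δnmr and 1 and 64 in place of 192 for Δnit-4. The block also gave 243 in place of 443 for Δnit-2 on isoleucine. With libraries 1 to 3 the counts were 899 for Δnit-4 without nitrogen and 304 for its difference of responses. With libraries 4 and up they were 1851 in place of 1229 for starved minus the mean of fed media, 1128 for Δnmr without nitrogen, and 1169 and 736 for the differences of responses of Δnmr and Δnit-4. With 1 library left out they ranged over 41 to 96 for Δamn-1 on tryptophan, 320 to 870 for Δnit-4 on nitrate and 103 to 306 for the Δnit-4 difference of responses.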

Other observations

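Within groups, the deviations of single libraries from their group means of log2(FPKM + 1) had a Pearson r of 0.28 between atg-8 and apg-1 over all 86 libraries and of 0.57 over the 80 libraries other than wild type without nitrogen. With the mitochondrial share of a library, these deviations had an r of 0.42 for atg-8 and 0.49 for apg-1 over 86 libraries. These are descriptions of libraries that share a group mean.

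The spread between replicates was similar for both genes despite their different abundance. The median coefficient of variation over the 27 groups was 10.96% for atg-8 and 10.6% for apg-1. For atg-8 it was lowest on arginine in wild type, at 1.51%, and highest in Δnmr without nitrogen, at 24.2%. For apg-1 it was highest in wild type without nitrogen, at 45.2%.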
